A study of Mus musculus with 6 samples.

Results

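The genes described here are 8 genes of the pituitary cells that make pro-opiomelanocortin: Pomc, Tbx19, Pax7, Neurod1, Crhr1, Avpr1b, Crhbp and Gpc5. They were chosen by name, as the 8 of 50348 gene names in the deposited tables that match this list, and all 8 were listed in all 6 libraries. The study isolated labelled hormone-producing cells from the mouse pituitary and measured their RNA beside that of whole glands. Each group is 1 library, so no difference below has a replicate check and no test was possible.

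The 3 adult sorted libraries came from pooled pituitaries of 7-week-old mice in which Cre recombinase and a YFP reporter at the Rosa locus marked the cells. The Tshbcre-YFP library pooled 42 glands, the Ghcre-YFP library 12 and the Lhbcre-YFP library 7. The fourth adult library was 1 nontransgenic whole gland, labelled adult with no age in weeks. At postnatal day 7 (P7), 1 library came from 5 pooled Tshbcre-YFP glands and 1 from 8 nontransgenic whole glands. Sorted cells were released with collagenase and collected by flow cytometry as the fluorescent fraction. The promoters that drive Cre belong to the beta subunit of thyrotropin (Tshb), growth hormone (Gh) and the beta subunit of luteinizing hormone (Lhb). Because recombination is permanent, a labelled cell is one in which the driver was active at that time or earlier. The sorted and whole libraries also differ in genotype and in dispersal and sorting, which cannot be told apart from cell type in these comparisons. No source used here gives the sex of the animals.

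Corticotropes of the anterior lobe and melanotropes of the intermediate lobe both transcribe Pomc, and they cut its protein differently. Corticotropes use mainly the convertase encoded by Pcsk1 and release corticotropin (ACTH), while melanotropes also use the convertase encoded by Pcsk2, which cuts ACTH further toward alpha-MSH. The T-box factor Tbx19 (Tpit) is required for Pomc-cell differentiation, Pax7 sets the melanotrope over the corticotrope fate, and Neurod1 is a basic helix-loop-helix factor that acts on the Pomc promoter through an E-box. Crhr1 and Avpr1b are the receptors through which corticotropin-releasing hormone and vasopressin act on corticotropes, Crhbp encodes a secreted protein that binds corticotropin-releasing hormone, and Gpc5 encodes a cell-surface glypican.

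The stretch of the Pomc message that separates the outputs of these cells is shown because the genes of its processing are compared below. It covers the 39 codons of ACTH and the flanking codons, read from the GENCODE vM21 transcripts (GRCm38) in a reading frame of 235 codons. Capitals mark the flanking Lys-Arg codon pairs, where ACTH is released, and the internal basic codons, where alpha-MSH is cut from its start.
Pomc ACTH stretch: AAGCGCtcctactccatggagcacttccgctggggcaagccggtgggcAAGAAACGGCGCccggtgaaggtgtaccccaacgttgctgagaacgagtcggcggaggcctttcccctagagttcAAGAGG
The 250 bases before the Pomc start site, from RefSeq on GRCm38.p6 (chr12:3954695-3954944, plus strand), are shown for an E-box of the type Neurod1 binds. Capitals mark the CAGATG match, which begins at position -147 from the start site, and the TATAAA match, which begins at -25. Whether this CAGATG match is the E-box through which Neurod1 acts on Pomc was not tested, and sequence farther upstream was not searched.
Pomc promoter: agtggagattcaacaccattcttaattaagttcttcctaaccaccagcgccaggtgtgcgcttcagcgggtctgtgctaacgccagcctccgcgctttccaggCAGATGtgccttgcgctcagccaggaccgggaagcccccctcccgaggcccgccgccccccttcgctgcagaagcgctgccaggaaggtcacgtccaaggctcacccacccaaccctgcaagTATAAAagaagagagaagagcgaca
Searched on both strands, CAGATG was found in 14.4% of 32841 mouse promoters of this length and TATAAA in 12.4%. The promoter table held 7 of the 8 genes, and CAGATG was found in that of Pomc alone among them. Beside the share of 14.4%, this match is no more than a description. CAGATG is also counted among the general E-boxes, CANNTG, which were found in 66.2% of promoters and also in those of Tbx19, Neurod1 and Crhbp.

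Levels are FPKM (fragments normalised to transcript length and library depth), summed over the named transcripts of a gene and scaled between libraries by the median of ratios. In parentheses are the sums of the confidence bounds in the deposited tables, which cover counting and read assignment within 1 library and nothing else. Folds throughout are those of scaled FPKM with 1 added, which understates differences at low levels. By the labelled driver, Tshb stood at 1075 in the adult Tshbcre library against 33.1 in the adult whole gland, and at 3001 against 61.0 at P7. Lhb stood at 2197 in the Lhbcre library against 638, and at 2904 in the adult Tshbcre library. Gh was not measured in the Ghcre, Lhbcre and adult whole libraries, so the Ghcre label was not checked by its driver. The Ghcre table is also cut off before its end. Depth relative to the adult whole gland, from coverage per FPKM, was at most 2.73, in Ghcre. In bulk RNA, fewer cells of a type and less RNA per cell cannot be told apart.

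Pomc, the hormone precursor (chr12:4004945-4010643, mm39), was the most abundant of the genes in every library. Its level was 1556 (1489 to 1623) in the adult whole gland and 1429 (1368 to 1489) in the P7 whole gland. In the sorted libraries it was 312 (297 to 326) in Lhbcre, 260 (247 to 274) in adult Tshbcre, 82.6 (77.1 to 88.2) in P7 Tshbcre and 27.9 (25.7 to 30.1) in Ghcre. Every sorted library was below both whole glands, and among neighbours in this order the bounds overlapped only between the whole glands. On log2(scaled FPKM + 1), Pomc was 53.9-fold lower in Ghcre than in the adult whole gland, 5.95-fold lower in adult Tshbcre, 4.98-fold lower in Lhbcre and, against the P7 whole gland, 17.1-fold lower in P7 Tshbcre. As a share of the whole gland of the same age, the adult Tshbcre library held 16.7% (15.2 to 18.4) and the P7 Tshbcre library 5.78% (5.18 to 6.45).

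Of 5 listed Pomc transcripts, 2 were above 0, of 1008 and 1038 nt. The 1038-nt transcript made up 60.1% of the Pomc level in Lhbcre, 53.8% in P7 Tshbcre, 49.1% in the P7 whole gland, 48.8% in adult Tshbcre, 45.2% in Ghcre and 44.3% in the adult whole gland. Neither transcript fell away in any library, from the lowest Pomc level to the highest.

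**Figure D1:**
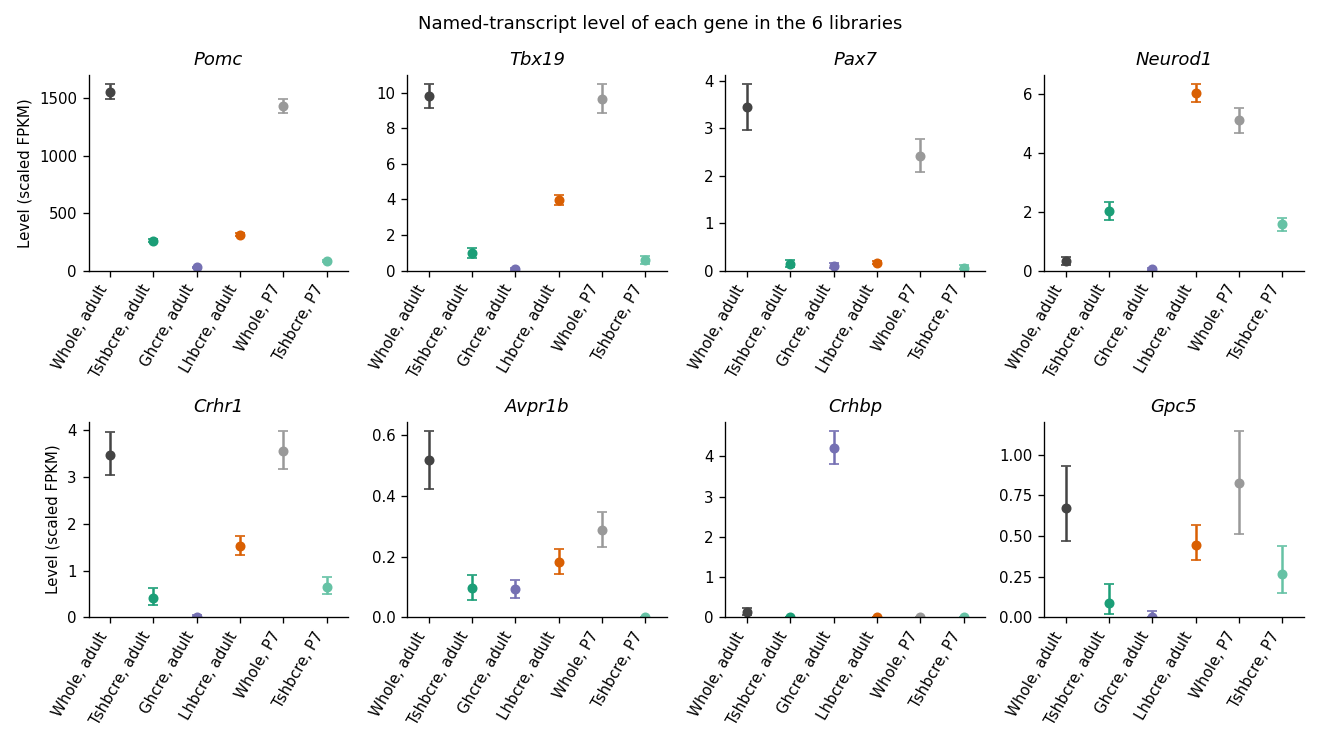
Level of each of the 8 genes (scaled FPKM, linear axis from 0, a separate scale for each gene) in the 6 libraries, 1 point per library, with bars for the deposited confidence bounds. Pomc, Tbx19, Pax7, Crhr1 and Avpr1b are highest in the whole glands, while Neurod1 is highest in Lhbcre and Crhbp in Ghcre.

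Tbx19, the factor that marks both Pomc cell types (chr1:164965403-164988342, mm39), followed Pomc in its order. It stood at 9.79 (9.11 to 10.5) in the adult and 9.66 (8.83 to 10.5) in the P7 whole gland. The Lhbcre library held 3.96 (3.67 to 4.26), adult Tshbcre 0.994 (0.711 to 1.28), P7 Tshbcre 0.610 (0.388 to 0.833) and Ghcre 0.0888. The whole glands overlapped in their bounds, as did the Tshbcre libraries of both ages, and Lhbcre lay between these pairs. With 1 added, Tbx19 was 9.91-fold lower in Ghcre, 5.41-fold lower in adult Tshbcre and 6.62-fold lower in P7 Tshbcre than in the whole gland of the same age. As shares of the whole gland, these are 0.908%, 10.2% and 6.32%, where Pomc in Ghcre was at 1.79%. With assembled transcripts Tbx19 in Ghcre was at 3.24%. In Lhbcre it was 2.17-fold lower, short of the 4-fold limit used here to call a gene apart, and at 40.5% (35.0 to 46.8) of the whole gland it was a larger share than that of Pomc, at 20.0% (18.3 to 21.9). An unnamed assembled transcript of 812 nt within the Tbx19 locus, at 6.58, raises the adult whole gland to 16.4, against which the Lhbcre share is 24.2%.

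Pax7, the melanotrope selector (chr4:139464370-139560841, mm39), was below 0.2 in all 4 sorted libraries on named transcripts. It stood at 3.44 (2.96 to 3.93) in the adult whole gland and 2.42 (2.08 to 2.77) at P7. The sorted libraries held 0.165 in Lhbcre, 0.144 in adult Tshbcre, 0.0990 in Ghcre and 0.0617 in P7 Tshbcre, and their bounds overlapped between neighbours. These are 4.80%, 4.17%, 2.87% and 2.55% of the whole gland of the same age, and an unnamed transcript of 5990 nt raises adult Tshbcre to 9.39%. On the scale with 1 added, the differences were 3.81-fold, 3.89-fold, 4.04-fold and 3.22-fold, so that only the Ghcre library passed 4-fold, and the scale understates changes at such levels. Between the whole glands, the level was 1.30-fold lower at P7, with bounds that did not overlap.

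In the Lhbcre library, Pax7 was thus a smaller share of the whole gland than Pomc or Tbx19. Its ratio to Tbx19 was 0.0417 (0.0306 to 0.0575) in Lhbcre against 0.352 (0.283 to 0.432) in the adult whole gland, or 0.210 there with assembled transcripts added. The ratio was 0.145 (0.0666 to 0.310) in adult Tshbcre, 0.101 (0.0392 to 0.286) in P7 Tshbcre and 0.251 (0.199 to 0.313) in the P7 whole gland, where bounds of the sorted and whole libraries overlapped. In Ghcre the ratio was 1.11 (0.365 to 3.12), also overlapping. With assembled transcripts it was 0.325 in adult Tshbcre, above the whole gland, and 0.187 in Ghcre. Other melanotrope markers were given the same comparison. Oacyl, an acyltransferase gene, stood at 2.85 in Lhbcre, 2.07 in both Tshbcre libraries and 0.233 in Ghcre, against 18.4 in the adult and 24.6 in the P7 whole gland. With assembled transcripts the adult whole gland stood at 27.6 and Ghcre at 0.931. Drd2, the dopamine receptor through which melanotropes are restrained, stood at 7.08 in Lhbcre and 3.12 in adult Tshbcre against 23.8, and at 0.484 in P7 Tshbcre against 5.52. With assembled transcripts Drd2 stood at 7.25 in adult Tshbcre. Which cells the Drd2 RNA came from was not tested. The third marker, Pcsk2, stood at 27.7 in Lhbcre against 17.0, but against 30.9 with assembled transcripts, which turns the direction.

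Neurod1 (chr2:79282981-79286980, mm39) did not follow Pomc. It was highest in Lhbcre, at 6.04 (5.74 to 6.35), and in the P7 whole gland, at 5.12 (4.69 to 5.54). It stood at 2.03 (1.72 to 2.33) in adult Tshbcre, 1.58 (1.36 to 1.80) in P7 Tshbcre, 0.333 (0.198 to 0.467) in the adult whole gland and 0.0449 in Ghcre. The Tshbcre libraries of both ages overlapped in their bounds, and all other neighbours were separate. With 1 added, Neurod1 was 5.29-fold higher in Lhbcre than in the adult whole gland, and it was 4.59-fold higher in the P7 than in the adult whole gland. Against the whole gland of the same age, the Tshbcre library was 2.27-fold higher in the adult and 2.37-fold lower at P7, and the difference between the ages was not tested.

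Both 4-fold differences of Neurod1 rest on the low named level in the adult whole gland. That library also held an unnamed transcript of 2758 nt in the Neurod1 locus at 0.908, the P7 whole gland one of 2788 nt at 2.31 and adult Tshbcre one of 2750 nt at 1.47. With these added the levels were 6.04 in Lhbcre, 7.42 in the P7 whole gland, 3.50 in adult Tshbcre, 1.58 in P7 Tshbcre and 1.24 in the adult whole gland. Neither difference then reached 4-fold, while the order of the Lhbcre and P7 libraries above the adult whole gland was kept. The log2 differences were 1.65 for Lhbcre and 1.91 for P7.

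The receptors of the stress axis were low throughout. Crhr1 (chr11:104021289-104066349, mm39) stood at 3.56 (3.18 to 3.98) in the P7 and 3.47 (3.04 to 3.97) in the adult whole gland, 1.52 (1.34 to 1.74) in Lhbcre, 0.648 in P7 Tshbcre and 0.414 in adult Tshbcre, and it is listed at 0 in Ghcre. The whole glands overlapped, as did the Tshbcre libraries, with Lhbcre between them as for Tbx19. Crhr1 counted as apart in Ghcre alone, where no fold is given because it is listed at 0. It was 3.16-fold lower in adult Tshbcre, 2.76-fold lower in P7 Tshbcre and 1.77-fold lower in Lhbcre. An unnamed transcript of 6747 nt at 0.875 brings Lhbcre to 2.39, or 69.1% of the adult whole gland in place of 43.9%.

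The Crhr1 transcript listed above 0 also varied. In Lhbcre all of the level, and in the adult and P7 whole glands 69.8% and 75.7% of it, lay on a 2534-nt transcript. In P7 Tshbcre all of it, and in adult Tshbcre 76.3%, lay on a 2414-nt transcript that was not above 0 elsewhere. These assignments are estimates at levels below 1 scaled FPKM in the Tshbcre libraries.

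Avpr1b (chr1:131526852-131539738, mm39) was below 1 in every library. It stood at 0.518 (0.422 to 0.613) in the adult and 0.288 (0.231 to 0.346) in the P7 whole gland, 0.183 in Lhbcre, 0.0978 in adult Tshbcre and 0.0927 in Ghcre, and is listed at 0 in P7 Tshbcre. No library reached the minimum at which a difference was called. Whole glands were above sorted libraries, and the adult was above the P7 whole gland, with bounds that did not overlap.

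**Figure D2:**
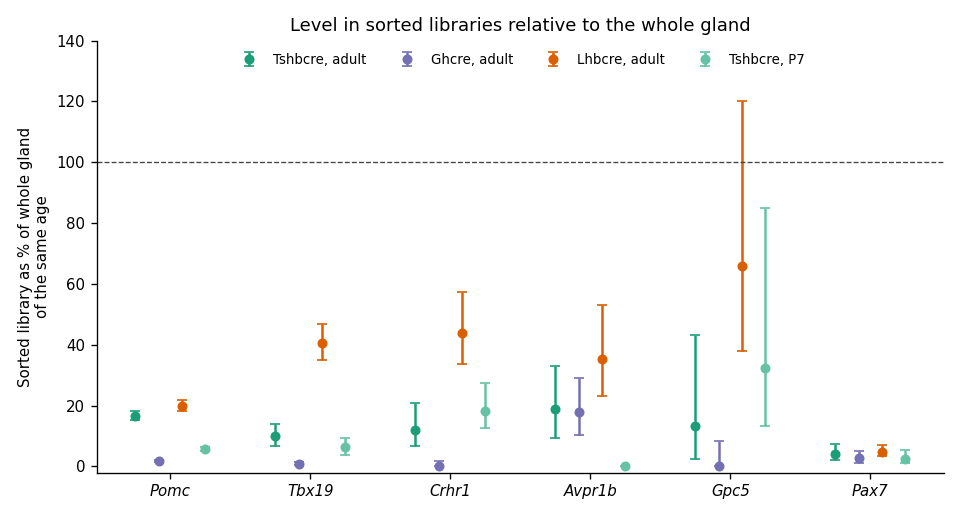
Level in each sorted library as a percentage of the whole gland of the same age (dashed line at 100%), on a linear axis, for the 6 genes highest in whole glands, with bars from the deposited bounds of both libraries. Pax7 is at 4.80% or less in all 4 sorted libraries on named transcripts, while Tbx19 and Crhr1 in Lhbcre are at 40.5% and 43.9%.

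Crhbp, whose product binds corticotropin-releasing hormone (chr13:95567884-95581339, mm39), was highest in Ghcre on named transcripts, the library where Pomc was lowest. It stood at 4.22 (3.81 to 4.63) in Ghcre and 0.140 in the adult whole gland, and is listed at 0 in the other 4 libraries. The difference between Ghcre and the adult whole gland was 4.58-fold, and without scaling between libraries its log2 value was 1.86, short of 4-fold. In Lhbcre, 3 unnamed transcripts lay in the Crhbp locus, where Crhbp is the sole named gene: one of 570 nt at 13.5, one of 1541 nt at 6.16 and one of 1436 nt at 1.97. With assembled transcripts added, Crhbp stood at 21.7 in Lhbcre and 10.3 in Ghcre, against 0.140 in the adult whole gland. Both Tshbcre libraries and the P7 whole gland stayed at 0, since no unnamed transcript of 200 nt or more was grouped with Crhbp there. Unnamed transcripts in the locus that the deposited assembly grouped apart from Crhbp were not sought. The listing at 0 in Lhbcre is therefore a listing of the named transcript and not an absence of assembled RNA at the locus.

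**Figure D3:**
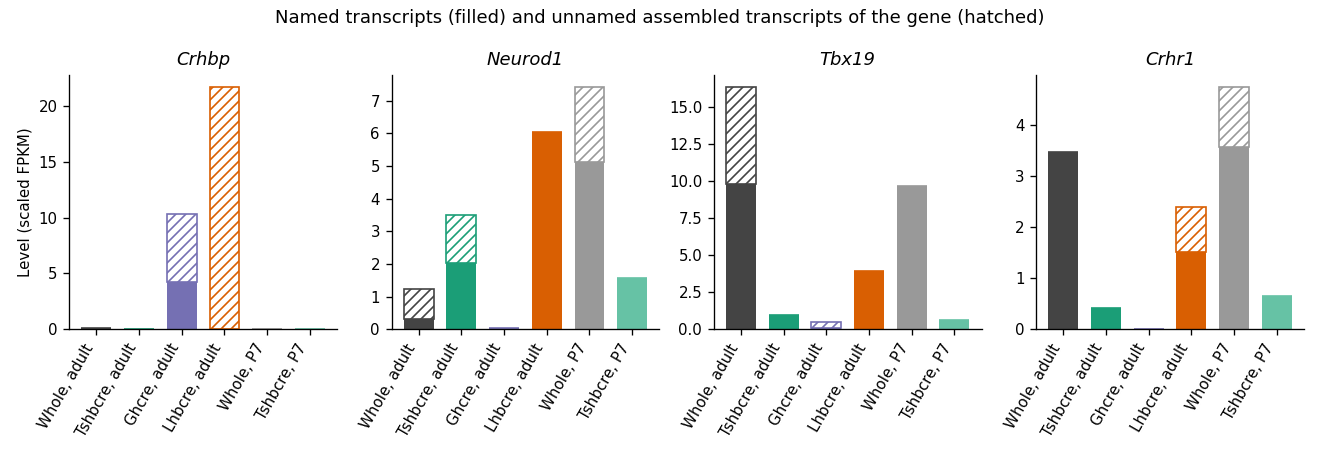
Level (scaled FPKM, linear axis from 0) of Crhbp, Neurod1, Tbx19 and Crhr1 in the 6 libraries, with filled bars for named transcripts and hatched bars for unnamed assembled transcripts of 200 nt or more grouped with the gene. Crhbp in Lhbcre consists only of assembled transcripts, 21.7 in sum, and the adult whole gland gains most for Tbx19, from 9.79 to 16.4.

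Gpc5 (chr14:115329640-116762604, mm39) was below 1 in every library on named transcripts. It stood at 0.824 (0.514 to 1.15) in the P7 and 0.673 (0.470 to 0.928) in the adult whole gland, 0.443 in Lhbcre, 0.268 in P7 Tshbcre and 0.0887 in adult Tshbcre, and is listed at 0 in Ghcre. Bounds overlapped between all neighbours in this order, but those of adult Tshbcre (0.0235 to 0.204) lay below those of the adult whole gland. In Ghcre the upper bound, 0.0394, did so too. With assembled transcripts the adult whole gland stood at 1.01, P7 Tshbcre at 0.329 and Ghcre at 0.268. The named level of Gpc5 was spread over up to 6 transcripts, the highest of them at 0.347 scaled FPKM in the adult whole gland.

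Counted together, 5 of the 8 genes reached the minimum of 1 scaled FPKM in the higher library in each comparison of a sorted library with a whole gland. These were Pomc, Tbx19, Pax7, Crhr1 and Neurod1, except that in Ghcre Crhbp passed and Neurod1 did not, and most passed through the whole gland, where they are high. In adult Tshbcre, 2 of these were at least 4-fold lower (Pomc and Tbx19) and 0 higher, where over all 15791 genes compared 3.83% were lower and 3.22% higher. In Ghcre, 4 were lower (Pomc, Tbx19, Pax7 and Crhr1) and 1 higher (Crhbp), against 5.35% and 4.44% of 11280 genes. Scaled to an equal sum, the Ghcre library shifted by 1.09 in the log2 median of all genes, its split turned from 603 genes lower and 501 higher to 408 lower and 1564 higher, and Pax7 and Crhr1 were no longer 4-fold lower. In Lhbcre, 1 was lower (Pomc) and 1 higher (Neurod1), against 5.45% and 3.84% of 16438 genes. The Lhbcre split was 896 lower and 632 higher and became 673 and 750 with an equal sum, where Pomc, at a log2 difference of -1.88, was no longer called. With assembled transcripts added, Crhbp was called higher in Lhbcre and Neurod1 was not. In P7 Tshbcre, 2 were lower (Pomc and Tbx19) and 0 higher, against 6.11% and 3.25% of 16354 genes. The P7 split, 1000 lower and 532 higher, was 1468 and 478 without scaling and 726 and 621 with assembled transcripts.

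Between the ages, few of the genes were apart. In the P7 against the adult whole gland, Neurod1 was the 1 gene at least 4-fold apart, and it was higher. Over all 15675 genes 3.27% were lower and 3.31% higher. Pomc was 1.09-fold lower and Tbx19 1.01-fold lower at P7, and the sign of both turned under equal-sum scaling and without scaling. With assembled transcripts Tbx19 at P7 was 59.0% of the adult level, a log2 difference of -0.70. In P7 against adult Tshbcre, 2 genes reached the minimum and 0 were 4-fold apart, where 4.64% of 16021 genes were lower and 3.58% higher. That split, 743 lower and 573 higher, became 605 and 672 with an equal sum. These were Pomc, 3.13-fold lower at P7 with separate bounds, and Neurod1, 1.17-fold lower with overlapping bounds and turned in sign by equal-sum scaling.

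Set against Pomc in the same library, which needs no scaling between libraries, the other genes did not keep 1 ratio. Tbx19 stood at 6.29 (5.61 to 7.04) per 1000 of Pomc in the adult and 6.76 (5.93 to 7.66) in the P7 whole gland. The ratio was 12.7 (11.3 to 14.3) in Lhbcre, 7.39 (4.40 to 10.8) in P7 Tshbcre, 3.82 (2.60 to 5.16) in adult Tshbcre and 3.18 (1.65 to 5.30) in Ghcre. Lhbcre was above both whole glands and adult Tshbcre and Ghcre below them, but with assembled transcripts the adult whole gland rises to 10.5 and Ghcre to 19.0. Crhr1 per 1000 of Pomc was 4.88 (4.12 to 5.86) in Lhbcre and 7.84 (5.69 to 11.3) in P7 Tshbcre, above the 2.23 (1.87 to 2.67) of the adult and 2.49 (2.13 to 2.91) of the P7 whole gland. In adult Tshbcre Crhr1 was at 1.59 (0.980 to 2.56) and in Ghcre at 0 with an upper bound of 2.02, both overlapping the adult whole gland. Pax7 per 1000 of Pomc was 0.531 (0.401 to 0.709) in Lhbcre and 0.552 (0.311 to 0.891) in adult Tshbcre, below the 2.21 (1.82 to 2.64) of the adult whole gland, and adult Tshbcre stood at 1.24 with assembled transcripts. In Ghcre it was 3.55 (1.65 to 6.03), with bounds that overlapped those of the adult whole gland. In P7 Tshbcre Pax7 was at 0.747 (0.370 to 1.44), overlapping the P7 whole gland at 1.70 (1.40 to 2.02). Neurod1 ranged from 0.214 in the adult whole gland to 19.4 in Lhbcre and 19.2 in P7 Tshbcre.

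**Figure D4:**
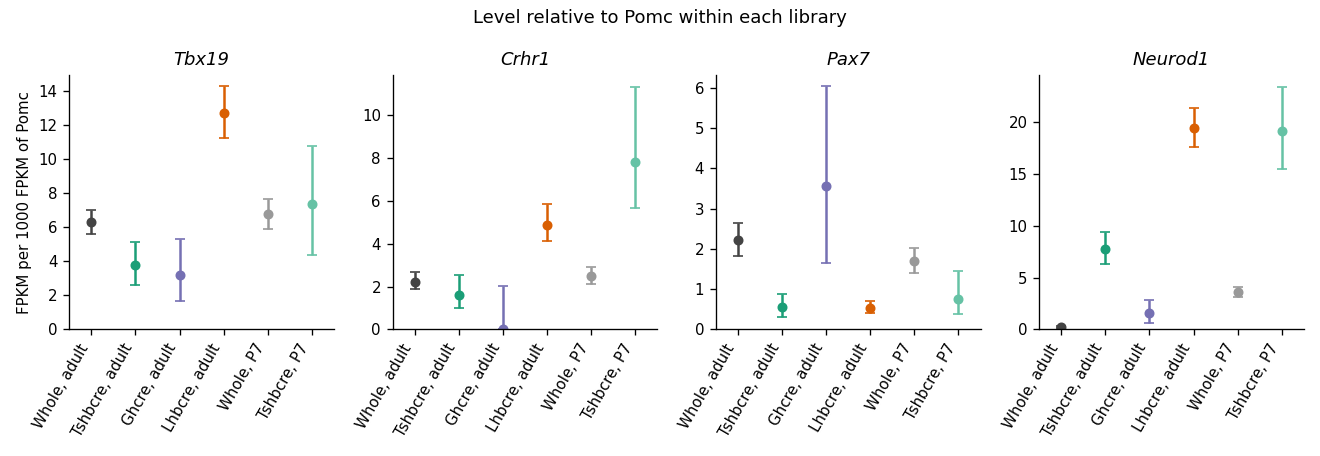
FPKM of Tbx19, Crhr1, Pax7 and Neurod1 per 1000 FPKM of Pomc in the same library (linear axes from 0), 1 point per library, with bars from the deposited bounds of both genes. Pax7 per Pomc is lower in Lhbcre and adult Tshbcre than in the adult whole gland, while Tbx19 and Crhr1 per Pomc are higher in Lhbcre.

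Endothelial and erythroid markers were lower in the sorted libraries, while the sum of gonadotrope markers was higher in the Tshbcre and Lhbcre libraries. The summed level of 3 endothelial markers (Pecam1, Plvap and Emcn) was 84.8 in the adult and 51.8 in the P7 whole gland, 22.4 in Lhbcre, 10.9 in adult Tshbcre, 2.82 in P7 Tshbcre and, over the 2 measured, 1.25 in Ghcre. The 2 erythroid markers summed to 560 and 836 in the adult and P7 whole glands and to between 41.5 and 88.8 in the 3 sorted libraries where both were measured. The 4 gonadotrope markers (Lhb, Fshb, Gnrhr and Nr5a1) summed to 3887 in adult Tshbcre and 2522 in Lhbcre against 832. They summed to 1768 in P7 Tshbcre against 412. The higher sum at P7 lay in Lhb, at 1278 against 312, and Fshb, at 482 against 85.2. Gnrhr was nearly level, at 8.92 in P7 Tshbcre against 9.17. Nr5a1 was lower there, listed at 0 against 6.09, although unnamed assembled transcripts were grouped with it. No endothelial or erythroid marker that was measured is listed at 0. The 4 stem and folliculostellate markers summed to 98.0 in the adult whole gland, 50.5 in adult Tshbcre and 6.15 in Lhbcre. At P7 they summed to 22.0 in the whole gland and 3.05 in Tshbcre. The 3 macrophage markers summed to 41.5, 24.1 and 6.97 in the same adult libraries, and to 15.9 and 1.46 at P7. These sums leave out assembled transcripts. With them, in the P7 whole gland, Aldh1a2 of the stem markers stood at 44.6 in place of 5.84, and Csf1r of the macrophage markers at 4.01 in place of 0. In adult Tshbcre, Gh stood at 14808 and Prl at 6547, against 17587 for Prl in the adult whole gland. The part of such cells in the levels of the Pomc-cell genes was not tested.

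The genes whose pattern was most like that of a member were sought among 4977 genes above 0 in all 6 libraries and at 5 or more in at least 1, by Pearson's r of log2(scaled FPKM + 1) over the 6 libraries, which differ in dispersal and depth as well as cell type. For Pomc these were Itpkb (r = 0.99), Ndrg2, Timp3, Capza1 and Dnmbp. For Tbx19 they included Drosha (r = 0.99), Tie1, Pecam1 and Emcn, of which Tie1, Pecam1 and Emcn are endothelial genes. For Neurod1 they were Vcan (r = 0.97), Pogk, Atp5b, Hes6 and Nnt. Hes6, a helix-loop-helix factor gene, stood at 30.8 in Lhbcre, 26.1 in the P7 whole gland and 8.77 in the adult whole gland. Between members, r was 0.96 for Pomc with Tbx19, 0.40 for Pomc with Neurod1 and 0.40 for Tbx19 with Neurod1.

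The genes that process the Pomc product differed among themselves. Pcsk1, the convertase that releases ACTH at the flanking pairs shown above, stood at 48.7 in adult Tshbcre, 40.2 in Lhbcre and 8.43 in Ghcre against 16.5 in the adult whole gland, and at 48.9 in P7 Tshbcre against 6.38. The P7 difference was 6.76-fold. With assembled transcripts Pcsk1 in Ghcre stood at 17.9, just above the adult whole gland. Pcsk2, the convertase that cuts at the internal basic codons, stood at 15.5 in adult Tshbcre, 27.7 in Lhbcre and 2.96 in Ghcre against 17.0, and at 7.66 in P7 Tshbcre against 12.3. It was 4.55-fold lower in Ghcre. With assembled transcripts the whole glands stood at 30.9 in the adult and 25.1 at P7, above the sorted libraries of the same age. Scg5, the chaperone of that convertase, was between 139 and 272 in the sorted libraries against 123 in the adult and 74.7 in the P7 whole gland. Of 10 processing genes, 9 passed the minimum in adult Tshbcre and in Lhbcre with none apart. In Ghcre 7 were measured and 6 passed, with Pcsk2 alone lower, and in P7 Tshbcre 10 passed, with Pcsk1 alone higher. Over all genes 5.35% were lower in Ghcre and 3.25% higher in P7 Tshbcre, so 1 gene is no more than a description. The median log2 difference of the list was 0.18 in adult Tshbcre, -0.55 in Ghcre, 0.58 in Lhbcre and 0.32 in P7 Tshbcre.

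Factors that act on Pomc or its lineage were seldom apart. Pitx1, a partner of Tbx19 at Pomc, stood at 53.4 in adult Tshbcre, 32.2 in Lhbcre and 17.8 in Ghcre against 32.0, and at 56.8 in P7 Tshbcre against 28.1. With assembled transcripts it stood at 92.0 in adult Tshbcre. Nr4a2, an orphan nuclear receptor that acts downstream of corticotropin-releasing hormone, stood at 5.26 in adult Tshbcre, 3.17 in Lhbcre and 10.5 in Ghcre against 27.4, a 4.53-fold and a 6.80-fold difference in Tshbcre and Lhbcre. With assembled transcripts it stood at 6.53 and 9.37 there and neither was 4-fold apart. Isl1, a LIM-homeodomain factor, was 4.01-fold higher in adult Tshbcre, at 10.5 against 1.86, or 20.5 against 2.51 with assembled transcripts. At P7 it stood at 13.4 against 7.02, or 46.5 against 7.02 with assembled transcripts, which is past 4-fold. Nr4a1 is listed at 0 in Ghcre, but with assembled transcripts it stood at 54.8 against 111. Lhx3 was 5.63-fold lower in P7 Tshbcre than in the P7 whole gland and 7.47-fold lower than in adult Tshbcre, and with assembled transcripts it stood at 26.7 against 23.3 and 31.3. Of the 16 factors listed, 14, 13, 14 and 15 passed the minimum in the comparisons of adult Tshbcre, Ghcre, Lhbcre and P7 Tshbcre with a whole gland, with 1 lower in each and 1 higher in adult Tshbcre. The share lower over all genes was between 3.83% and 6.11% in these comparisons.

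Of 20 other ligands and receptors of the stress and melanocortin axes, 19 were measured, 13 of them in Ghcre. At most 5 passed the minimum, and none was apart in any comparison on named transcripts. Crh, the ligand of Crhr1, is listed at 0 in all 6 libraries. Avp, the ligand of Avpr1b, stood at 3.54 in the adult and 5.15 in the P7 whole gland and between 0.282 and 1.56 in the sorted libraries. With assembled transcripts Avp was at 17.1 in the P7 whole gland against 0.960 in P7 Tshbcre, past 4-fold with a log2 difference of -3.21. Agrp, a melanocortin antagonist gene singled out after its values were seen, was at 14.9 in Lhbcre against 2.11 with assembled transcripts, also past 4-fold. Among 10 genes of glucocorticoid feedback, Hsd11b1, which regenerates active glucocorticoid, was 10.3-fold lower in Ghcre and 5.75-fold lower in Lhbcre, at 0.291 and 1.30 against 12.2. Nr3c1, the glucocorticoid receptor, stood between 5.89 and 8.07 in the sorted libraries against 14.0 in the adult and 16.6 in the P7 whole gland. With assembled transcripts Ghcre stood at 16.3, above the adult whole gland. In the adult whole gland Fkbp5 has a listed value of 0, so its 3 higher calls in adult sorted libraries compare with a listing at 0, and with assembled transcripts it stood at 19.5 there. Sgk1 was 4.88-fold lower in P7 Tshbcre, but at 12.4 against 10.8 with assembled transcripts. Of the glypicans, Gpc3 was 4.68-fold lower in adult Tshbcre, 6.82-fold lower in Lhbcre and 16.8-fold lower in P7 Tshbcre, at 1.86, 0.964 and 1.05 against 12.4 in the adult and 33.5 in the P7 whole gland, and no other glypican was apart.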

How the data were processed

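The authors deposited 1 Cufflinks transcript table per library, with FPKM, its lower and upper bound and a coverage signal. FastQC, Bowtie2, Cufflinks and the mm39 build are named per the submitters' processing notes, with no versions, and strand handling was not given in those sources. With 1 library per group no test was made. The deposited coverage was a constant multiple of FPKM in each library and gave relative depth only. Python 3.11.15 with pandas 2.3.3 and numpy 2.4.6 summed the FPKM of named transcripts per gene. Libraries were scaled by the median of ratios over 5795 genes. A gene was called apart at 4-fold or more on log2(scaled FPKM + 1) with the higher library at 1 or more. Genes with a transcript not marked OK, or with fewer transcripts listed than elsewhere, were not used. Locus starts, which count from 0, were raised by 1.

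Unnamed transcripts of 200 nt or more that Cufflinks grouped with 1 named gene were added as an alternative. Others at the same place were not sought. As FPKM is already divided by length, adding pieces of 1 message can count a molecule more than once. Other alternatives changed the pseudocount, scaling, transcript sum, minimum and fold. The script was tested on simulated data. From each list, the 2 genes with the largest difference among those apart, and genes known to act on a member, were named. The 5 genes most like a member by Pearson's r were also named, except 1 that is not reported here. The members and lists were chosen with earlier results of these data known.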

Additional observations from a re-analysis of the deposited data

Results flagged for a closer look

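Neurod1 lay in opposite directions at the 2 ages: its log2 difference between Tshbcre and whole gland was 1.18 in the adult and -1.24 at P7, from 1 library in each group. The difference between the ages was not tested. Transcripts with no gene name, which the comparisons leave out, carried signal in the loci of Neurod1 and Crhbp. They summed to 1.47 scaled FPKM for Neurod1 in adult Tshbcre, 6.07 for Crhbp in Ghcre and 21.7 for Crhbp in Lhbcre. Unnamed transcripts also lay in the loci of Tbx19, Crhr1, Pax7 and Gpc5. Among them were 1 at 6.58 for Tbx19 in the adult whole gland and 1 at 1.18 for Crhr1 in the P7 whole gland.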

How the results depend on the processing

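Counts of members apart moved under some choices. In adult Tshbcre against whole gland, the 2 apart became 5 with a pseudocount of 0.1, 4 with 0.5 and 5 at a 2-fold limit. In Ghcre, 5 became 3 with libraries scaled to an equal sum and 3 with the highest named transcript only, and without scaling it was 4, as Crhbp was no longer called. In Lhbcre, 2 became 1 with an equal sum and 4 at 2-fold. In P7 Tshbcre against whole gland, 2 became 4 with a pseudocount of 0.1 and 5 at 2-fold. Between the whole glands, 1 became 0 with assembled transcripts added, and between the Tshbcre libraries 0 became 1 at 2-fold. A lower pseudocount or limit calls more low genes by its construction, and the cause of the other shifts was not tested. Of 327 differences of single members recomputed, 8 changed sign, and none of these was 4-fold apart as reported. Sizes moved more often. Of 48 differences, 31 left the range of the deposited bounds with a pseudocount of 0.1 and 25 with 0.5. It was 15 without scaling, 15 with an equal sum, 15 with assembled transcripts and 9 with the highest transcript. The log2 difference of Tbx19 between Ghcre and the adult whole gland ranged from -5.71 to -2.84. No paired analysis was possible because each group is 1 library, and for the same reason no library could be left out. Avpr1b and Gpc5 were below 1 scaled FPKM in named transcripts in every library, so no difference of theirs could be called there, and whether more depth would change this was not tested.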
